A study of Homo sapiens with 3 samples.

Results

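Platelet-derived growth factors (PDGFs) and vascular endothelial growth factors (VEGFs) are related secreted dimers that act through receptor tyrosine kinases, and the neuropilins are co-receptors that bind VEGFs and class 3 semaphorins. The set described here held 10 human genes of this family, of 19775 genes named on the array. They were PDGFA, PDGFB, PDGFC and PDGFD, the PDGF receptors PDGFRA and PDGFRB, the VEGF ligands VEGFB and VEGFC, and the neuropilins NRP1 and NRP2. All probe sets annotated to 1 of these genes were taken, 32 of 54675 on the array. The gene list had been chosen from the family with the signals of these same arrays already known, so the values are given as a description.

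The signals came from total RNA of MHCC97Low, a human metastatic hepatocellular carcinoma line, and of 2 sublines derived from it. These were the parental line (97Low), the cisplatin-resistant subline MHCC97L/CisR (C8) and the doxorubicin-resistant subline MHCC97L/DoxR (D5), each measured on 1 Affymetrix U133 Plus 2.0 array. The sublines are written CisR and DoxR below. All lines were grown in DMEM with serum and are listed as receiving no treatment; doses and duration of the selection are not analysed here. There was 1 array for each line, so a difference between arrays could not be set against a spread between cultures, and no test was possible.

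In liver, PDGFs are best known as signals that make stellate cells and fibroblasts divide and lay down matrix, while VEGFs act on blood and lymphatic endothelium. Hepatoma cells can secrete such ligands towards neighbouring stroma that carries the receptors. PDGF-C and PDGF-D are secreted in a latent form and become active only when a protease removes an N-terminal domain.

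A probe set was compared between arrays when at least 1 of its values exceeded a floor of 76.9 signal units, the median of all values pooled. Values under the floor were set to the floor before the log2 step because dim MAS5 values cannot be ordered, and "at least" marks a fold limited in this way. A gene was represented by its brightest probe set, and a difference of 2-fold or more was called higher or lower. Of the 32 probe sets, 13 exceeded the floor on all 3 arrays, 2 on some of them and 17 on none. By gene, PDGFA, PDGFB, PDGFC, VEGFB, NRP1 and NRP2 could be compared, while PDGFD, PDGFRA, PDGFRB and VEGFC stayed under the floor in every probe set on every array. Signal above the floor was thus found for ligands and co-receptors of the set and for neither PDGF receptor.

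**Figure D1:**
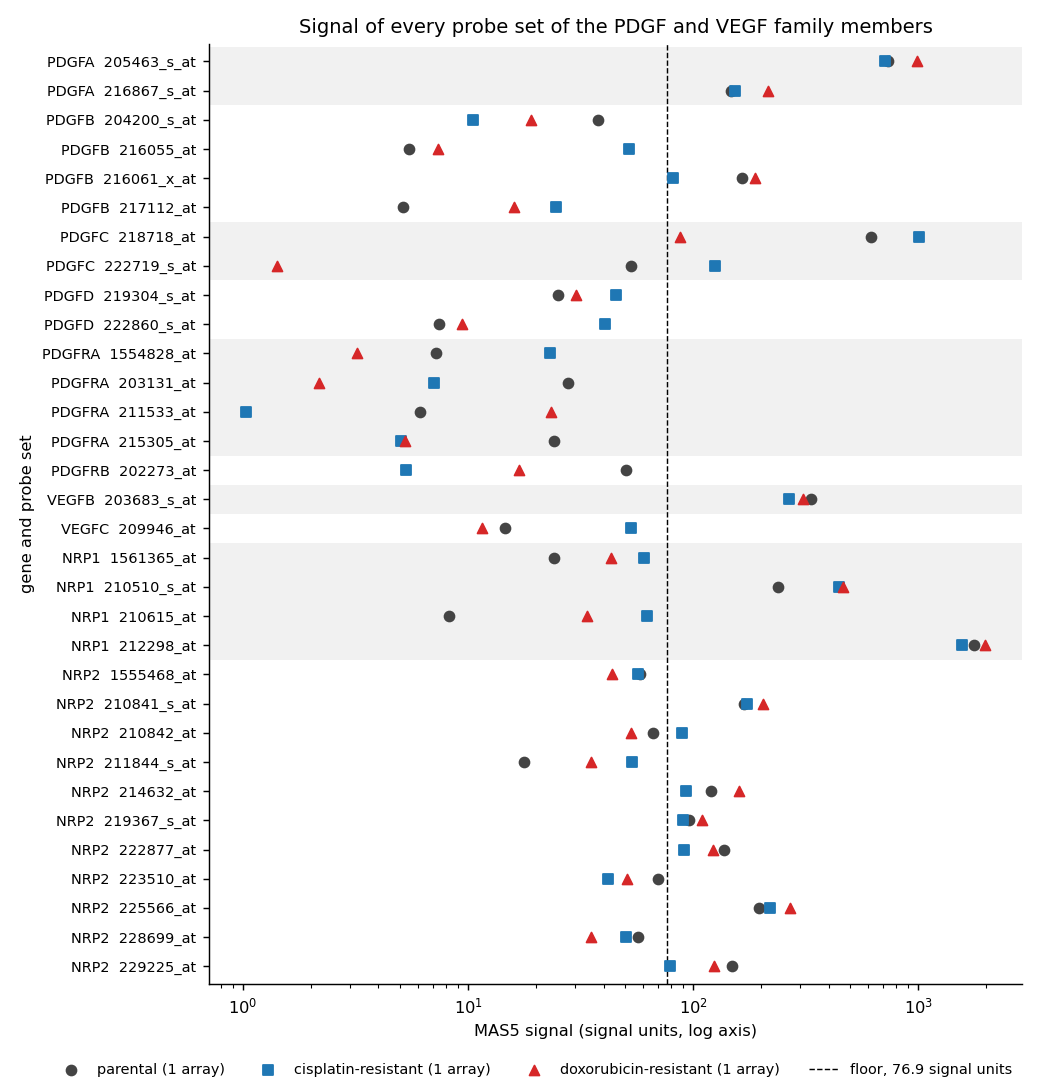
MAS5 signal (log axis, signal units) of all 32 probe sets of the 10 genes, with 1 point for each array and the floor of 76.9 as a dashed line. PDGFC in the DoxR array lies far to the left of the other arrays in its brighter probe set. In its other probe set the DoxR and parental points both lie left of the floor, so they cannot be ordered. All points of PDGFD, PDGFRA, PDGFRB and VEGFC lie left of the floor.

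The ligand PDGFC differed most among the lines. Its brighter probe set, 218718_at, had a signal of 617 in the parental, 1006 in the CisR and 87.7 in the DoxR array. The DoxR value thus lay just above the floor, and that of the CisR array was the highest. PDGFC was 7.03-fold lower in the DoxR than in the parental array, 11.5-fold lower than in the CisR array, and 1.63-fold higher in the CisR than in the parental array. The other probe set, 222719_s_at, had 53.1, 125 and 1.42 signal units in the same order of lines. It exceeded the floor only in the CisR array, which was at least 1.62-fold higher than either of the other arrays, so the order of the lines could be read in part only.

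Across all genes the PDGFC difference was among the largest in its direction. It was 18th from the lowest of 12605 genes compared between the DoxR and parental arrays, and 11th from the lowest of 12604 between the sublines. In genes of the same brightness, 1 of 10 equal groups, the log2 difference from parental had an SD of 0.519 (estimated from the median absolute deviation over 1261 genes), beside -2.81 for PDGFC. This is a spread over genes and not between cultures.

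PDGFC lies on chromosome 4, and the genes around it were set beside it, since neighbouring genes can differ together between lines. The 10 compared genes on each side had a median log2 difference of -0.19 between the DoxR and parental arrays, and PDGFC stayed at -2.62 with that median subtracted. CTSO, a cathepsin gene next to it on one side, had signals of 402, 454 and 406 in the parental, CisR and DoxR arrays. The nearest compared gene on the other side, GASK1B, had 1361, 1278 and 97.3, a log2 difference of -3.81 between the DoxR and parental arrays. GASK1B was named after its values were seen, and its other probe set gave only a bound of 1.03-fold. Of the genes named on the array, those between PDGFC and GASK1B are GLRB, GRIA2 and LINC02433, which were under the floor in both the parental and DoxR arrays in every probe set, so the stretch held no other value for that comparison. Beyond GASK1B, TMEM144 was 1.41-fold lower. Further away on the CTSO side, the fibrinogen genes FGB, FGA and FGG, liver secretory products, had log2 differences of at most -4.68, -2.86 and -3.71 in the DoxR array. They were also lower in the CisR array, at -2.76, -1.85 and at most -3.71, where PDGFC was at 0.71.

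**Figure D2:**
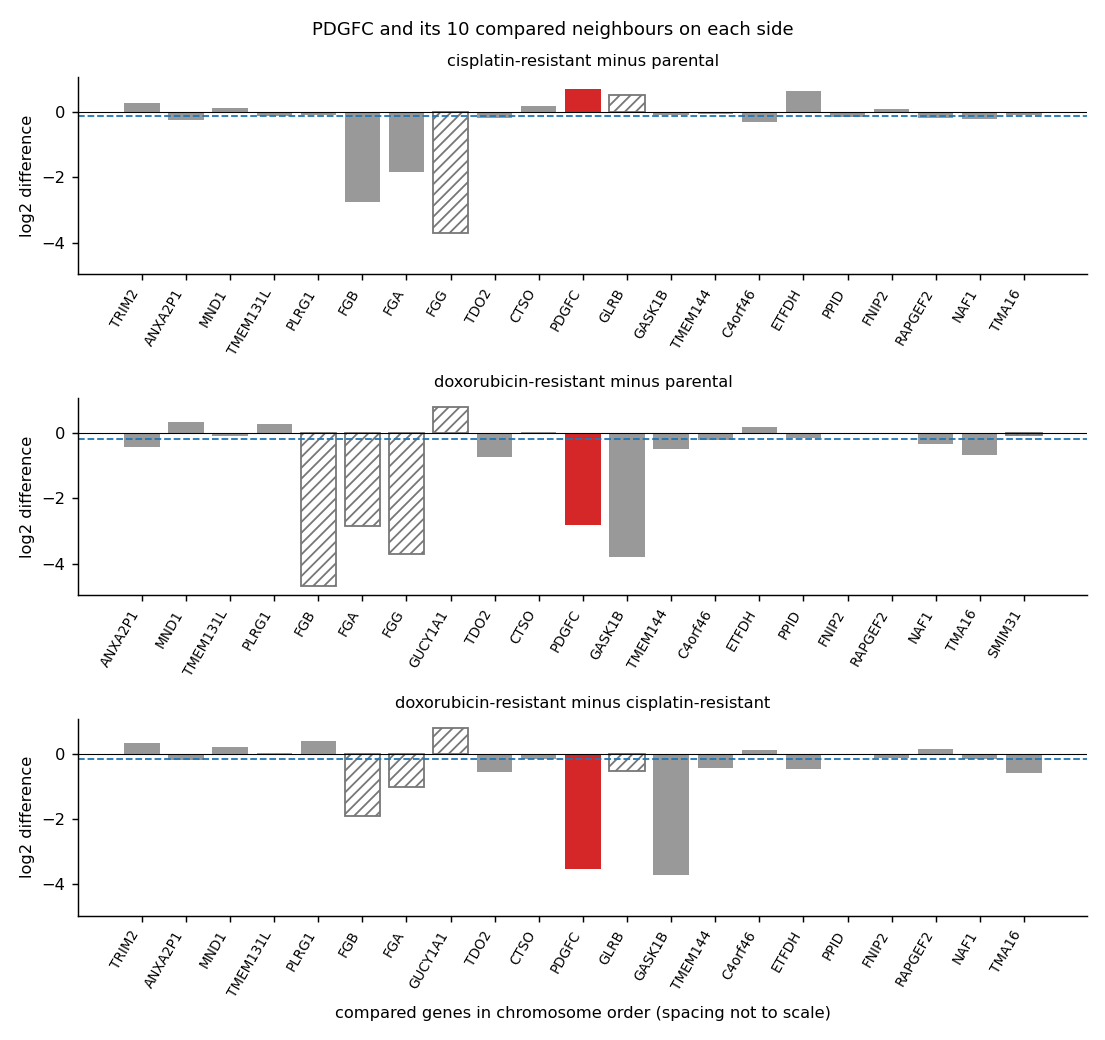
Log2 difference of PDGFC (red) and of its 10 compared neighbours on each side in chromosome order, 1 panel for each pair of arrays, with the neighbours' median as a dashed line and hatched bars for bounds. PDGFC and GASK1B are both far below 0 in the DoxR array against either other array (-2.81 and -3.81 against parental), while CTSO lies at 0.01.

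PDGFA and PDGFB, ligands that are secreted in active form, showed no fall of this kind in the DoxR array. PDGFA had signals of 733, 714 and 984 in the parental, CisR and DoxR arrays by 205463_s_at, and 148, 153 and 216 by 216867_s_at. In both probe sets the DoxR array was the highest and the other arrays lay close together. The log2 difference from parental was 0.42 and 0.55 in the DoxR array, and -0.04 and 0.05 in the CisR array, all within 2-fold. PDGFA lies near an end of chromosome 7, and the median of its compared neighbours in the DoxR array was 0.20.

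PDGFB rested on 1 of its 4 probe sets. The probe set 216061_x_at had signals of 166, 81.8 and 189 in the parental, CisR and DoxR arrays, so the CisR array was low and close to the floor. The log2 difference was -1.02 between the CisR and parental arrays and 1.21 between the sublines, both just past 2-fold. The other 3 probe sets were under the floor on all arrays, at 5.13 to 51.9 signal units, and gave no comparison. Affymetrix uses the ending _x_at for probe sets with probes that can match other transcripts, and genes of this brightness had an SD of 0.695 in the same comparison (from the median absolute deviation over 1271 genes).

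PDGFD, the ligand closest to PDGFC in sequence and likewise latent, had 25.1, 45.5 and 30.1 signal units by 219304_s_at and 7.41, 40.7 and 9.38 by 222860_s_at, in the order parental, CisR, DoxR. All 6 values were under the floor, so no order of the lines could be read.

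The PDGF receptors were not detectable above the floor. PDGFRA, the receptor that PDGF-A and PDGF-C dimers bind, had 4 probe sets between 1.03 and 27.8 signal units over the 3 arrays. PDGFRB, a receptor of PDGF-B and PDGF-D dimers, had 50.5, 5.32 and 16.9 units in its only probe set. A signal under the floor does not show that a transcript is absent.

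Among the VEGF ligands, VEGFB, which binds the receptor FLT1, had signals of 334, 268 and 307 in the parental, CisR and DoxR arrays. The log2 differences from parental were -0.32 and -0.12, and the 3 values lay close together. VEGFC, the lymphatic growth factor, had 14.5, 53.2 and 11.6 units, all under the floor.

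The neuropilins went apart by probe set. NRP1 had signals of 1773, 1564 and 1991 in the parental, CisR and DoxR arrays by its brightest probe set, 212298_at, with log2 differences from parental of -0.18 and 0.17. By 210510_s_at it had 238, 447 and 466, where both sublines were above the parental array, at 0.91 and 0.97, just within 2-fold. The 2 probe sets therefore disagreed on the size for both sublines and on the direction for the CisR one, and probe sets of 1 gene can read different transcripts. The other 2 probe sets of NRP1 were under the floor at 8.24 to 62.6 units. NRP1 lies on chromosome 10, where the median of its neighbours was -0.06 in the CisR and -0.07 in the DoxR array.

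NRP2 had 11 probe sets, of which 6 exceeded the floor on all arrays, 1 only in the CisR array and 4 on none. Its brightest, 225566_at, had signals of 197, 219 and 270 in the parental, CisR and DoxR arrays, with log2 differences from parental of 0.15 and 0.46. In the CisR array, 3 of 7 compared probe sets lay above and 4 below the parental value, down to -0.92 for 229225_at (149 against 79.1 units). In the DoxR array 4 of 6 lay above and 2 below. Between the sublines, 6 of 7 were higher in the DoxR array, from 0.23 to 0.79, and none of the 7 reached 2-fold.

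**Figure D3:**
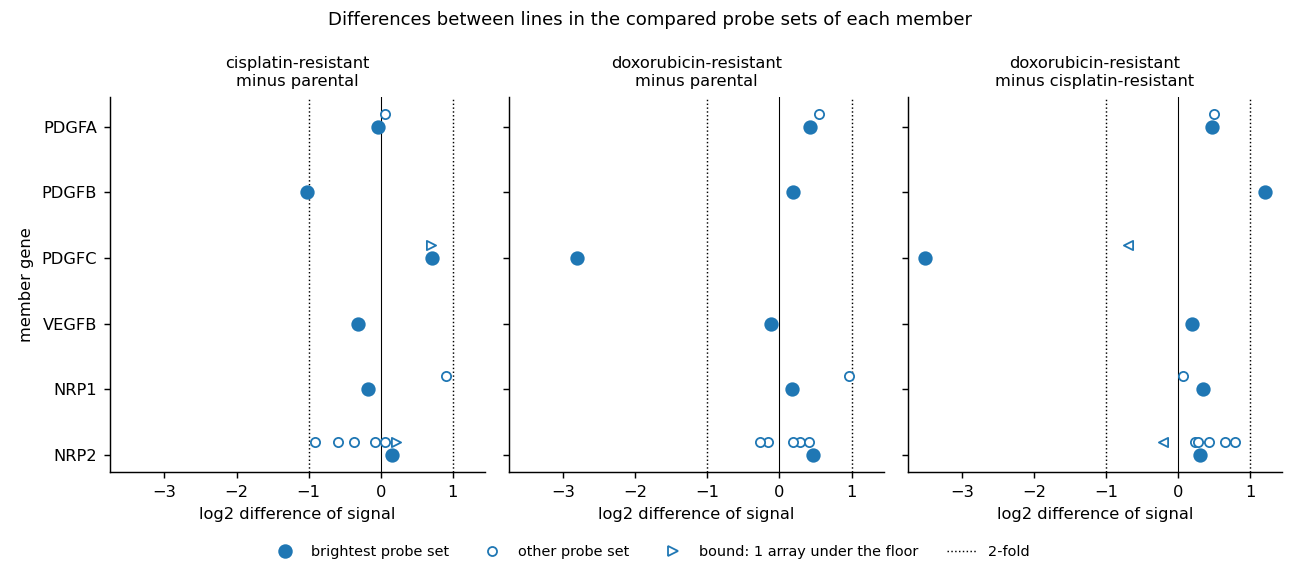
Log2 difference of signal between 2 arrays for each compared probe set of the 6 genes that could be compared; filled points are the brightest probe set, open points the others, triangles bounds, and dotted lines mark 2-fold. PDGFC stands at -2.81 and -3.52 in the comparisons of the DoxR array, PDGFB just past 2-fold in 2 panels, and the remaining points lie within 2-fold.

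Counted over the set, 6 of 10 genes were compared in each pair of arrays. Between the CisR and parental arrays none was called higher and 1 lower (PDGFB), where 2.83% of 12710 genes were higher and 2.58% lower. Between the DoxR and parental arrays none was higher and 1 lower (PDGFC), where 2.98% of 12605 genes were higher and 2.74% lower. Between the sublines 1 was higher in the DoxR array (PDGFB) and 1 lower (PDGFC), where 3.05% and 3.30% of 12604 genes were. With 6 genes, 1 call is too few to set the set apart from this background. By probe set, 1 of 15, 1 of 13 and 2 of 15 compared probe sets were called in the 3 comparisons, beside 4.93%, 5.10% and 5.59% of all compared probe sets. The median log2 difference of the 6 genes was -0.11, 0.18 and 0.33, and that of all compared genes was 0.02, 0.00 and -0.01. The comparisons share arrays and are not independent of each other.

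The other VEGF family ligands and receptors were mostly within 2-fold. Of 6 such genes 5 had a probe set named here and 4 were compared, with medians of 0.31 in the CisR and 0.19 in the DoxR array and none called against parental. VEGFA, the main angiogenic VEGF, had signals of 2407, 2031 and 4526 in the parental, CisR and DoxR arrays. It was 1.88-fold higher in the DoxR than in the parental array and 2.23-fold higher than in the CisR array, the only call of this list between the sublines, and was named after its values were seen. Its other 3 probe sets had the same direction, from 0.37 to 0.73 against parental. The VEGF receptor KDR had 200, 285 and 190 units in its only probe set. FLT1 had 88.6, 159 and 122 by 1 probe set and was under the floor in the other 5, and FLT4, the VEGFC receptor, was under the floor throughout.

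Of 12 class 3 semaphorins and plexins, which compete or signal with VEGF at the neuropilins, 8 were compared against parental in each subline. SEMA3A was the only one called in the CisR array. Its signals were 208, 674 and 256 in the parental, CisR and DoxR arrays, 3.25-fold higher in the CisR than in the parental array, and its other compared probe set gave at least 2.05-fold. In the DoxR array SEMA3A differed from parental by 0.30, while its neighbours on chromosome 7 had a median of 1.46. SEMA3C was 2.57-fold higher in the DoxR array (769, 1044 and 1978 units), although its other probe set gave 1.16-fold. It lies on chromosome 7 in a stretch whose genes were higher in that array: the median of its neighbours was 1.36, and nothing of the difference was left with that median subtracted. PLXNA1, a plexin that transmits the signal of neuropilin-bound semaphorins, was 2.19-fold lower in the DoxR array (1582, 1263 and 721 units) and 1.58-fold by its other compared probe set. The list medians were 0.15 and -0.29.

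Among 12 proteases and extracellular proteins that process or bind these ligands, 10 were compared in the CisR array, with 1 higher and 1 lower, and 9 in the DoxR array, with 2 higher and 2 lower. Over all compared genes, 2.83% were higher and 2.58% lower in the CisR array, and 2.98% and 2.74% in the DoxR array. PLAT, tissue plasminogen activator, is the protease known to release active PDGF-C. It had 159, 207 and 44.5 units in the parental, CisR and DoxR arrays, at least 2.06-fold lower in the DoxR array, by its only probe set. PLAT and PDGFC thus both had their lowest value in the DoxR array and their highest in the CisR array, where PLAT was 1.30-fold above parental. KDR, CBLB and MAPK3, among other listed genes, had the same order of lines. A link between PLAT and PDGFC was not tested. The proprotein convertase PCSK5 was 2.12-fold higher in the DoxR array (570, 582 and 1207 units), with 2.31-fold and 2.50-fold by its other probe sets, and stood at 0.79 on the log2 scale, under 2-fold, with the median of its neighbours subtracted. PCSK6, a related convertase, was 2.49-fold higher in the CisR and 2.03-fold higher in the DoxR array (221, 549 and 449 units), and its other compared probe set gave at least 1.44-fold and at least 1.46-fold. SPARC, a matrix protein that binds PDGF, had 172, 59.7 and 12.2 units and was at least 2.24-fold lower in both sublines. Only its parental value exceeded the floor, and its other probe set was under the floor on all arrays (5.72, 11.1 and 1.40 units).

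Genes further down the pathway showed no call against parental in either subline by their brightest probe sets. These were 16 receptor-proximal adaptors and enzymes with a probe set named here (15 compared in the CisR and 16 in the DoxR array, medians -0.06 and -0.03), 6 RAS-ERK and AKT kinases (medians -0.06 and -0.16), 8 compared early genes that growth factors induce (medians -0.19 and 0.13) and 6 compared hypoxia regulators (medians -0.02 and -0.21). The SRC family kinase YES1, named after its values were seen, lay near the threshold in the CisR array, at -0.96 by its brightest probe set (4027, 2066 and 3481 units on the parental, CisR and DoxR arrays) and at -1.20 by its other compared probe set, which also gave 1.01 between the sublines. Between the sublines, CBLB and MAPK3 were the only calls of these lists by the brightest probe sets, and were named after their values were seen. CBLB is a ubiquitin ligase that limits receptor tyrosine kinase signalling, and MAPK3 is an ERK kinase. Both were lower in the DoxR than in the CisR array, at -1.06 and -1.06. The other compared probe set of CBLB gave -0.58 between the sublines, within 2-fold. Against parental, CBLB was at 0.62 in the CisR and -0.44 in the DoxR array. MAPK3 had 459, 894 and 430 units in the parental, CisR and DoxR arrays by its only probe set, an _x_at one. Against parental it was at 0.96 in the CisR array, near the threshold, and at -0.09 in the DoxR array.

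**Figure D4:**
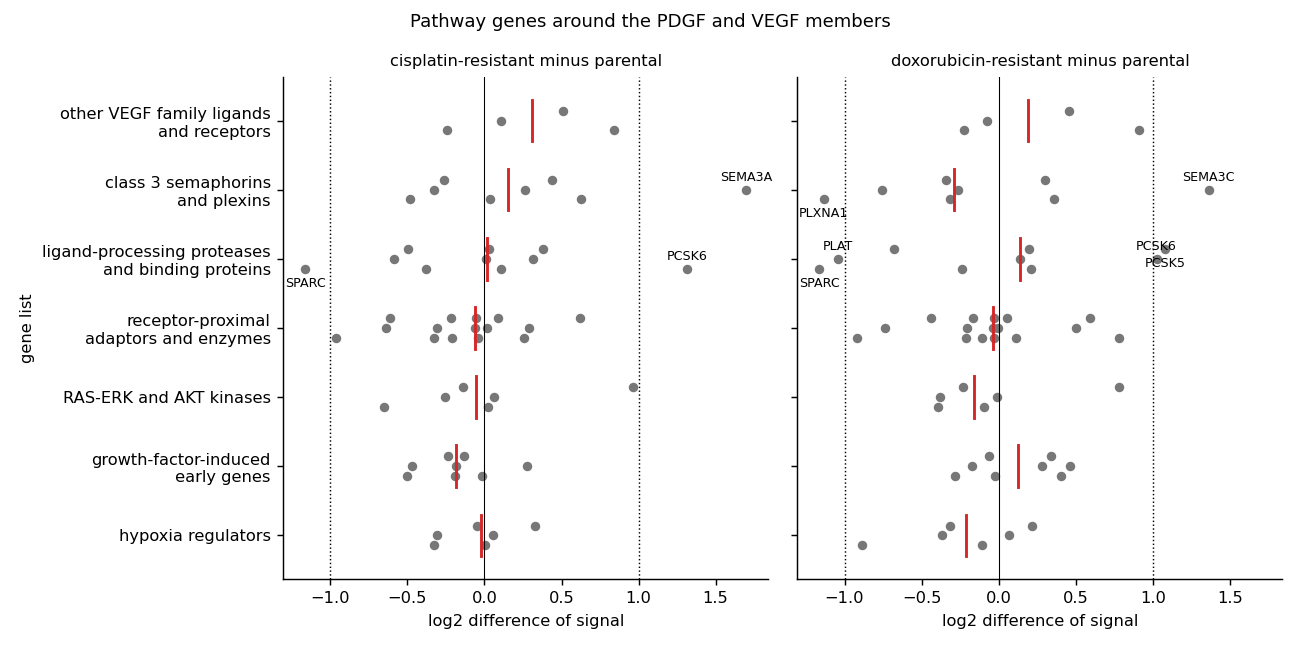
Log2 difference from the parental array for the compared genes of the 7 pathway lists, 1 point for each gene, with list medians in red and 2-fold as dotted lines; the values of SPARC in both panels, of ST14 in the CisR panel and of PLAT, SEMA3G and FYN in the DoxR panel are bounds. Calls fall in the semaphorin and plexin list and in the list of proteases and binding proteins, and none in the receptor, adaptor, kinase, early gene or hypoxia lists.

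The arrays had similar scale, with median signals of 73.3 to 79.2. The epithelial keratins KRT8 and KRT18 had 23132 to 34849 units on the arrays, and 10 to 12 of 16 hepatocyte markers exceeded the floor, with a summed signal of 62620 to 69797. Most of that sum came from the keratins: without KRT8 and KRT18 it was 16245 units in the parental, 2956 in the CisR and 8093 in the DoxR array. Among the compared hepatocyte markers, 9 of 14 were called lower and 1 higher in CisR (median -1.74), and 4 of 13 lower and 2 higher in DoxR (median -0.42). Over all compared genes, 2.58% were lower and 2.83% higher in CisR, and 2.74% and 2.98% in DoxR. By their brightest probe sets, the plasma protein albumin (ALB) had 1545, 3.17 and 3115 units on the parental, CisR and DoxR arrays, and the iron carrier transferrin (TF) had 4925, 234 and 404. The 2 other compared probe sets of ALB had log2 differences of -2.34 and -1.40 in CisR. In DoxR they had 0.18 and 0.95, within 2-fold. APOB was higher in both sublines, with 42.3, 386 and 816 units, at least 5.01-fold in CisR and at least 10.6-fold in DoxR. The part of these marker differences in the values of the ligands and receptors was not tested. Endothelium is the main site of VEGF receptors in tissue, and of its 12 markers 2 to 4 exceeded the floor on an array (summed signal 1358 to 1885). PECAM1 (1052, 802 and 827 units) and ESAM (432, 504 and 364) exceeded it on the parental, CisR and DoxR arrays. LYVE1 (135, 76.8 and 46.6) and ROBO4 (83.6, 68.4 and 42.6) exceeded it on the parental array only. The remaining 8 markers, among them CDH5, VWF, TEK and TIE1, were under it throughout. Of 12 fibroblast, stellate and mural markers 2 to 5 exceeded the floor, with a summed signal of 945 in the parental, 3706 in the CisR and 1794 in the DoxR array, of which LUM made up 258, 2632 and 1167. Of 6 leukocyte markers 1 or 2 did, with sums of 339 to 467. The part of other cell types in the results was not tested. As for every bulk sample, fewer cells with a transcript and less transcript in each cell cannot be told apart.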

How the data were processed

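Biotin-labelled cRNA from total RNA of 3 cultures was hybridised to 1 array each, per the labels. The authors deposited a linear signal intensity for each probe set, made with MAS5 per the submitters' processing notes (version: not given in the sources used here). Trimmed by 2% at each end, the mean of an array was 499.9, as a global scaling would leave it, which assumes equal total signal. All 3 value columns were used.

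Of 54675 probe sets, 41097 had 1 gene symbol in the platform annotation, updated through Entrez identifiers in a RefSeq table of assembly GRCh38.p14, where 99.8% matched; the table also gave gene order. Probe sets with several symbols (1801) were named for no gene. Log2 differences were computed in Python 3.11.15 with pandas 2.3.3 and numpy 2.4.6. With 1 array for each line no p-value, SE or SD between samples exists, and precision is limited by having so few arrays. The steps were tested on simulated arrays in which only genes far above the floor were changed, so calls near the floor were not covered.

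The members and gene lists were chosen with earlier results of these data known. All 10 members were named, and of each pathway list up to 4 genes with the largest difference from parental of at least 2-fold. Alternatives changed the floor, scaling, choice of probe sets and correction for 10 neighbours on each side. List genes without a probe set of a single symbol are not used here.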

Additional observations from a re-analysis of the deposited data

Results flagged for a closer look

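PDGFC, PDGFB and PLAT differed from the parental array in opposite directions in the 2 sublines, which were also 2-fold or more apart. For PDGFC the log2 difference was 0.71 in the CisR and -2.81 in the DoxR array, and -3.52 between the sublines. PDGFB had -1.02 and 0.19, and 1.21 between the sublines, by 1 probe set of 4. Its 0.19 in the DoxR array was smaller than the SD of 0.519 over genes of the same brightness. PLAT had 0.38 and a bound of -1.04, and at most -1.43 between the sublines, by its only probe set. VEGFA, CBLB and MAPK3 of the pathway lists had the same pattern, without a call against parental. Their differences in the CisR and DoxR arrays were -0.25 and 0.91 (VEGFA), 0.62 and -0.44 (CBLB), and 0.96 and -0.09 (MAPK3). With 1 array for each line these differences were not tested.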

How the results depend on the processing

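No paired analysis was possible because each line had 1 array, and for the same reason no replicate could be left out. The count of members called between the CisR and parental arrays, 1 as reported, was 3 with the floor at the 25th percentile of the pooled values and 0 with the floor at the 75th percentile, with an offset of 16 in place of a floor, with the median over probe sets, and without _x_at and _s_at probe sets. Between the DoxR and parental arrays it moved from 1 to 2 at the low floor and to 0 at the high floor, which left 3 members to compare. Between the sublines it moved from 2 to 3 at the low floor, and to 1 at the high floor, with the median over probe sets, and without _x_at and _s_at probe sets. PDGFC kept its calls in every alternative except the high floor of 439.7 units, to which its DoxR value was raised and where it was -0.49 against parental and -1.19, still called, between the sublines. The calls added at the low floor of 19.4 units were PDGFRB and VEGFC, whose signals are all under the floor used here. PDGFB was -0.89 in the CisR array with the offset. It could not be compared at the high floor, with the median over probe sets, or without _x_at and _s_at probe sets. The lower counts there thus do not show PDGFB within 2-fold. The alternatives for the pathway genes were added after the data were seen. With neighbours subtracted, SEMA3C in the DoxR array moved from 1.36 to -0.000168, and SEMA3A moved from 0.30 to -1.16 there, past 2-fold, and from -1.40 to -2.70 between the sublines. Quantile normalization and centring each array on its median changed no side of 2-fold among members or named pathway genes. At the high floor PCSK6 and SEMA3A lost their calls, and SPARC, SEMA3C, PCSK6 and PLXNA1 lay within 2-fold when their probe sets were summarised by the median. In the DoxR array PCSK6 was at 0.97 with the offset, and PLXNA1 at -0.66 without _x_at and _s_at probe sets. SPARC and PLAT could not be compared at the high floor, nor SPARC, PLAT and SEMA3C without _x_at and _s_at probe sets.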
